A study of Mus musculus with 6 samples.

Results

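The genes described here are Ncoa1, Ncoa2, Ncoa3 and Foxa1, cofactors of the androgen receptor, and the listed accessible-chromatin regions around them. The 4 genes were chosen by name out of 21887 protein-coding genes, with earlier results of these data known, and the rule used no measured value. A region was counted for a gene when its centre lay inside the gene span or within 100 kb of it, and 4 of the 6502 listed regions (0.0615%) met this rule. The receptor gene itself was not analysed here.

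The regions came from ATAC-seq, in which a transposase cuts accessible DNA, on basal stem cells of mouse prostate. There were 3 inflamed samples, labelled POET3 in genotype and inflamed in treatment, and 3 naive samples, labelled WT and control. POET3 mice carry an ovalbumin transgene expressed in the prostate. Inflammation was set off by transferring pre-activated splenocytes of OT-1 mice, and prostates were taken 7 days later. The extraction protocol names POET3 mice as the source of both groups, so the labels disagree on the genotype of the naive samples, and by the labels inflammation and genotype cannot be told apart. All 6 samples shared a sort for cells negative for CD45 and CD31 and positive for Sca-1 and CD49f, with no culture step. No age is given, and no source used here says whether a sample was 1 animal or a pool. A region list carries no marker level, so the sorted cell type was not checked against markers.

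Ncoa1, Ncoa2 and Ncoa3 encode the p160 steroid receptor coactivators, also called SRC-1, SRC-2 and SRC-3. They bind hormone-loaded nuclear receptors through short leucine-rich motifs and bring in acetyltransferases and methyltransferases that modify histones. Foxa1 encodes a forkhead pioneer factor, which binds nucleosomal DNA and lets the androgen receptor reach its sites. In the mouse it is needed for the prostate epithelium to form normally.

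All 6 libraries were represented by a single merged list of coordinates in mouse build mm10, with no signal, fold change, p-value or direction. Its name and the tools named with it point to regions that differed between inflamed and naive cells, but no source used here explains the thresholds. A region is therefore described only as listed or not listed, and no side is given as the more accessible one. Library depth is unknown, no value has a replicate error, and no test between inflamed and naive samples could be fitted. Of the listed regions, 3210 were 143 bases wide, 3291 were 451 bases wide and 1 was 235 bases wide. What the widths stand for is not stated.

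Of the 4 genes, Ncoa2 and Foxa1 each had 2 regions in their windows, while Ncoa1 and Ncoa3 had 0. Having at least 1 region was common, since 42.7% of all protein-coding genes did by the same rule. The share of 2 in 4 is thus near the background and is not a result about these genes. Together the 4 windows covered 1353 kb and held 2.96 regions per 1000 kb, against 2.93 per 1000 kb over the windows of all protein-coding genes. Of the 4 regions, 3 were 451 bases wide and 1 was 143 bases wide, and none overlapped any of the 32851 promoter windows of the RefSeq table. The whole list of 6502 regions overlapped 727 of these windows. The share of listed regions that overlap a window was not counted, so the absence is not read as particular to these genes.

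**Figure D1:**
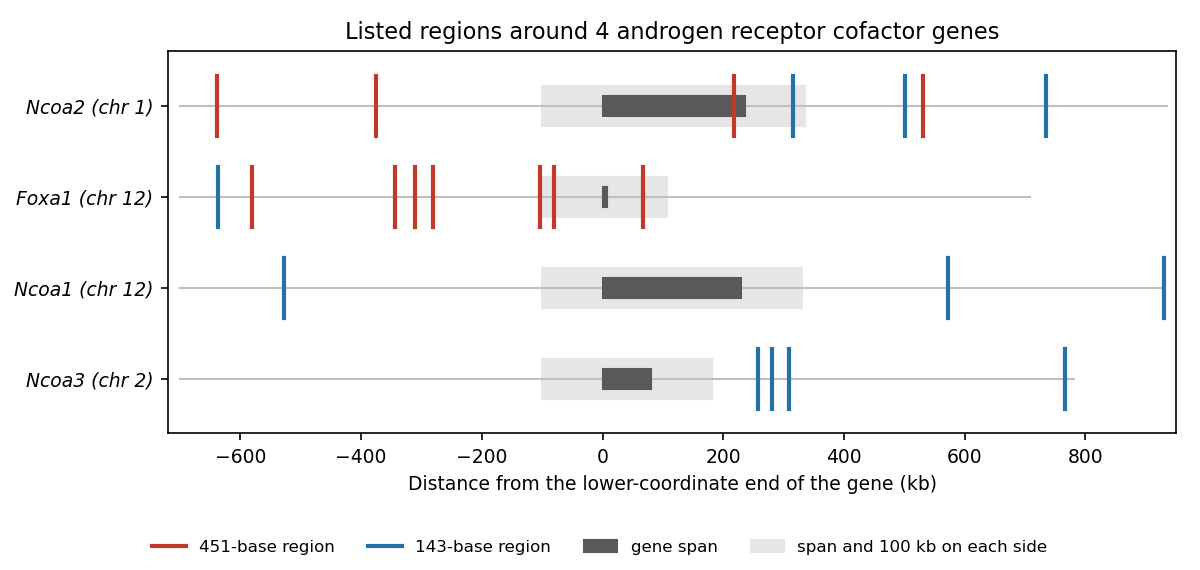
Listed regions along Ncoa2, Foxa1, Ncoa1 and Ncoa3, with the distance from the lower-coordinate end of each gene in kb on the x axis. Dark bars are gene spans, pale boxes add 100 kb on each side, ticks are regions coloured by width, and lines end 700 kb from the gene. The pale boxes of Ncoa2 and Foxa1 hold 2 ticks each, and those of Ncoa1 and Ncoa3 hold 0.

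Of the 4 genes, only Ncoa2 had a listed region inside its span. The gene (NCBI gene 17978) spans chr1:13139105-13374227, or 235 kb. The inner region, at chr1:13356609-13357059, was 451 bases wide. Its centre lay 17.4 kb from the higher-coordinate end of the gene, 92.6% of the way along the span. RefSeq gives neither the strand nor the exons of Ncoa2 in the tables used here, so the region could not be called exonic or intronic, nor placed near the start or the end of the transcript.

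The other region of the Ncoa2 window was 143 bases wide, at chr1:13454629-13454771, and lay 80.5 kb beyond the same end. Ncoa2 was the nearest protein-coding gene to both regions. The nearest annotated gene of any type to the outer region was Gm39600, a pseudogene 17.9 kb away. Counting genes of any type therefore left the inner region alone with Ncoa2 as its nearest gene.

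On the other side of Ncoa2, where the germ cell gene Prdm14 adjoins it, the nearest region lay 375 kb away. That region was 451 bases wide, at chr1:12764254-12764704, inside Sulf1, which encodes a heparan sulfate endosulfatase. On the higher-coordinate side the next regions beyond the window were 266 kb away, inside Lactb2, and 296 kb away, inside Xkr9. Within 500 kb of Ncoa2 there were 6 regions, 3 of each width.

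Genes of similar length often had a region too. Among 1714 protein-coding genes with a span from 0.5 to 2 times that of Ncoa2, 63.1% had at least 1 region in the window, 36% had at least 2, and 40.6% had a region inside the span. Among all protein-coding genes, whose median span was 17.2 kb, 10.2% had a region inside the span.

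Foxa1 had a region on each side, both 451 bases wide, and neither had Foxa1 as its nearest gene. The gene (NCBI gene 15375) spans chr12:57540628-57548029, only 7.4 kb, on the minus strand. The first region, at chr12:57607583-57608033, was centred 59.8 kb upstream of the span and 61.7 kb from the start site in the RefSeq promoter table. It lay inside Ttc6, a gene of 191 kb whose span overlaps the upstream end of the Foxa1 span, and also inside the non-coding gene 4921518K17Rik. The second, at chr12:57460542-57460992, lay 79.9 kb downstream of Foxa1 and 3.53 kb from Mipol1, its nearest gene.

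Between these regions lay 147 kb with no listed region, and Foxa1 sits within that stretch. A further 451-base region, at chr12:57436938-57437388 inside Mipol1, fell just outside the window, 103 kb from Foxa1 and 23.6 kb from the region before it. All 6 regions within 500 kb of Foxa1 were 451 bases wide, and 5 of them were on the downstream side. The nearest 143-base region was 637 kb away. In the whole list 50.6% of regions were 451 bases wide, and neighbouring regions are not independent of each other.

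Among the 6075 genes with a span from 0.5 to 2 times that of Foxa1, 38.9% had at least 1 region in the window and 13.9% had at least 2. Only 2.86% of them had a region inside the span. Foxa1 shared the absence of an inner region with nearly all genes of its size.

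The promoter window of Foxa1 (chr12:57546062-57546361, from 250 bases before to 50 bases after the start site) held no listed region. It is shown because the list left it out and because it carries a forkhead motif, the kind of sequence that Foxa1 protein itself recognises. The stretch printed is on the minus strand of GRCm38.p6 from RefSeq, at chr12:57546235-57546264, with the forkhead match in capitals, read as TGTTTAC on the opposite strand.
Foxa1: ttatactgctttGTAAACAaagtgagggcc

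A forkhead match on either strand was present in 3.65% of all promoter windows. The Foxa1 window also held 3 GC boxes (GGGCGG), a motif found in 35.7% of windows, and it was 62.3% G and C. The start site lies inside the annotated span, 1.92 kb from the span's upstream end. A match describes letters only and does not show that a factor binds there.

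Ncoa1 had no listed region inside it or within 100 kb, and it lay in the longest empty stretch of the 4 genes. The gene (NCBI gene 17977) spans chr12:4247362-4477206, or 229.8 kb, on the minus strand. The nearest region was 342 kb upstream, at chr12:4819583-4819725, 143 bases wide and inside Sf3b6, which encodes a splicing factor subunit. Downstream the nearest was 528 kb away, at chr12:3719491-3719633, also 143 bases wide and inside Dtnb. From the centre of the first to that of the second ran 1100.1 kb without a listed region, and within 500 kb of Ncoa1 there was 1 region in all.

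Among 1748 genes with a span from 0.5 to 2 times that of Ncoa1, 63.2% had at least 1 region in the window and 13.7% lay farther from a region than Ncoa1 did. Ncoa1 and Ncoa2 had nearly equal spans and differed in listing. With shares of 63.2% and 63.1% at like spans, many such genes had no region, so the difference is not read as particular to them. Whether Ncoa1 was accessible in both groups, in neither, or missed a threshold cannot be read from the list.

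The Ncoa1 promoter is shown as the start of a gene whose surroundings held no listed region. The bases printed are those of the RefSeq window that lie outside the gene span, at chr12:4477207-4477432 on the minus strand of GRCm38.p6, with GC boxes (GGGCGG on either strand) in capitals.
Ncoa1: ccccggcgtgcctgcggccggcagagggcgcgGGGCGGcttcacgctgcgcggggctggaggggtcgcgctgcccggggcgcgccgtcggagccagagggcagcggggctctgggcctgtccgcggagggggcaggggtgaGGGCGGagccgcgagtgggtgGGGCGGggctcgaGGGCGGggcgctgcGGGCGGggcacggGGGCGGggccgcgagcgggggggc

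These 226 bases held 6 GC boxes and the whole window held 7, all on the strand of the gene. The window was 84.7% G and C, and 99.8% of promoter windows in the table had less, with a median of 52.7%. It held 49 CpG dinucleotides, against a median of 7. A single androgen response half-site (AGAACA), present in 19% of windows, lay after the start site. The Foxa1 window had none.

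Neither window held the full androgen response element (AGAACA and TGTTCT 3 bases apart, 0.00913% of windows), an AP-1 motif (TGACTCA, 5.2%), an E-box (CACGTG, 7.15%), a GATA motif (AGATAAG, 3.04%) or an NF-kB motif (8.46%). All motifs were searched on both strands, and matches may overlap. Ncoa2 and Ncoa3 are named without a promoter.

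Ncoa3 also had no region in its window, but 3 regions lay together further out on one side. The gene (NCBI gene 17979) spans chr2:165992637-166073242, or 80.6 kb, and its strand is not given in the tables used here. The nearest region, at chr2:166249446-166249588, was 176 kb beyond the higher-coordinate end. The next were 201 kb away (chr2:166273710-166273852) and 228 kb away (chr2:166301357-166301499). All 3 were 143 bases wide, with 24.3 and 27.6 kb between neighbouring centres.

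The nearest protein-coding gene to each of the 3 was the predicted gene Gm30733, and the middle region overlapped the promoter window of the non-coding gene Gm11468. Between them and Ncoa3 lies Sulf2, which encodes the other heparan sulfate endosulfatase and was itself 93.8 kb from the nearest of them. On the lower-coordinate side the nearest region was 705 kb from Ncoa3. Its surroundings had 961.5 kb without a listed region.

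Among 4636 genes with a span from 0.5 to 2 times that of Ncoa3, 54.6% had at least 1 region in the window and 31.8% lay farther from a region than Ncoa3 did.

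Ordered by distance to the nearest listed region, Ncoa2 came first with a region inside the gene, then Foxa1 at 59.8 kb, Ncoa3 at 176 kb and Ncoa1 at 342 kb. The median over all protein-coding genes was 135.7 kb, so Ncoa2 and Foxa1 lay nearer than the median and Ncoa3 and Ncoa1 farther. Of all genes, 26.5% lay farther from a region than Ncoa1, 43.2% farther than Ncoa3, 67.5% farther than Foxa1 and 89.8% farther than Ncoa2. These are positions of single genes and have no error.

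**Figure D2:**
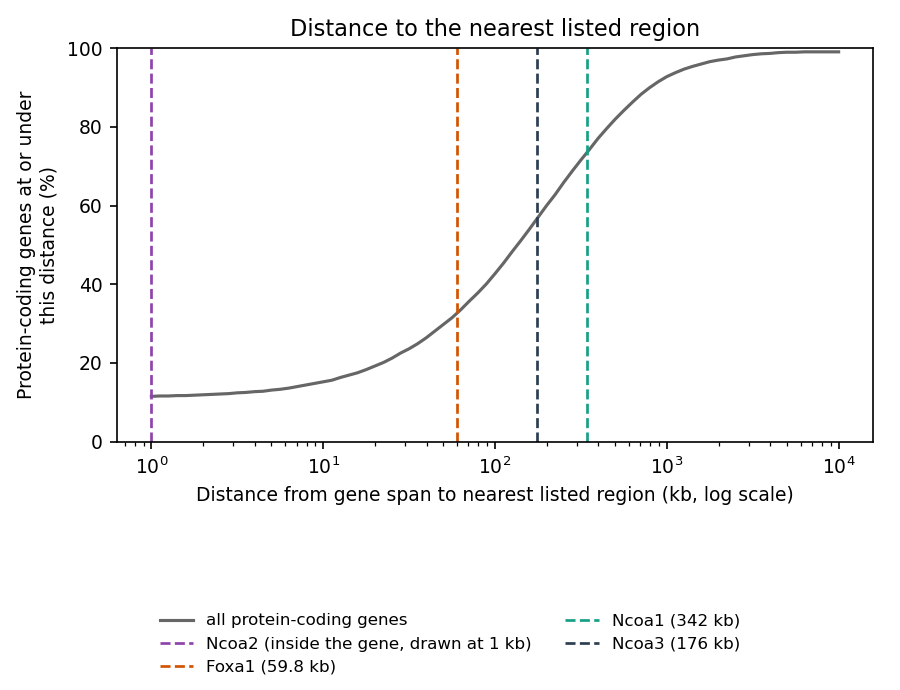
Cumulative percentage of protein-coding genes (y axis) by distance from the gene span to the nearest listed region (x axis, kb, log scale), with a dashed line for each of the 4 genes. The lines of Foxa1, Ncoa3 and Ncoa1 cross the curve between 32.5% and 73.5%, and Ncoa2, with a region inside the gene, is drawn at 1 kb.

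The difference between the genes depended on how far out regions were counted. Within 10 kb and within 50 kb Ncoa2 had 1 region and the other genes had 0, while 15.2% and 29.7% of all protein-coding genes had at least 1. At 200 kb Foxa1 had 3, Ncoa2 had 2, Ncoa3 had 1 and Ncoa1 had 0, against a mean of 1.28 over all protein-coding genes. At 500 kb Ncoa2 and Foxa1 had 6 each, Ncoa3 had 3 and Ncoa1 had 1, against a mean of 2.9, and 81.9% of all protein-coding genes had at least 1. Each count includes the gene span, and the mean is not matched for span. Ncoa2 and Ncoa1 span 235.1 and 229.8 kb, against a median of 17.2 kb over all protein-coding genes.

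**Figure D3:**
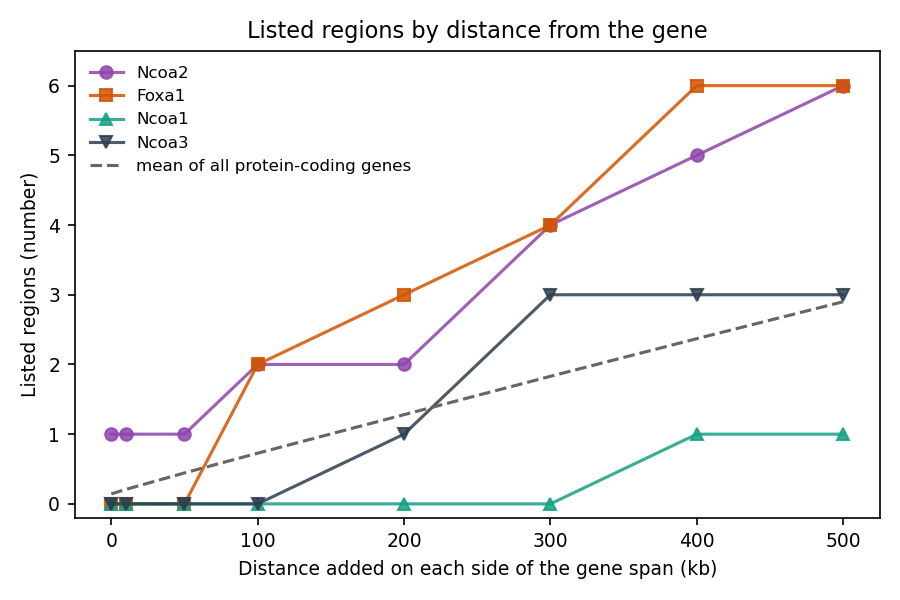
Number of listed regions (y axis) counted inside each gene and up to a distance on each side of it (x axis, kb), for the 4 genes and as the mean of all protein-coding genes (dashed). From 100 kb outward Ncoa2 and Foxa1 stay above the mean, Ncoa1 stays below it throughout, and Ncoa3 crosses it between 200 and 300 kb. The mean is not matched for gene span.

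Genes that act with the p160 proteins and Foxa1 were set beside them in 5 role lists of 66 genes. Of the 66, 31 (47.0%) had at least 1 region in the window, beside the 42.7% of all protein-coding genes, and 11 (16.7%) had a region inside the span, beside 10.2%. The lists are short, and their genes had a median span of 29.2 kb, against 17.2 kb over all genes. Median spans ran between 12.3 kb for chaperones and turnover factors and 54.2 kb for p160 partners. No list was tested or set beside genes of like span, so the counts only describe the lists and are not read as setting any apart.

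Partners of the p160 proteins in chromatin modification and transcription had a region in 6 of 12 cases. Kat2b, an acetyltransferase, had 3 regions, 1 of them inside the gene. Med1, the Mediator subunit that contacts nuclear receptors, had 2, the nearer 2.61 kb away. Smarca4, an ATPase of the SWI/SNF remodelling complex, had 1 at 25.3 kb. Crebbp and Ep300, the acetyltransferases that p160 proteins recruit directly, had 0 in their windows, with the nearest regions at 169.9 and 220.3 kb. They were chosen for mention after their values were seen.

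Med12, another Mediator subunit, was a case where a listed region covered a promoter. It had 2 regions in its window, both 451 bases wide, and the nearer, at chrX:101273833-101274283, was centred 33 bases outside the gene. The upstream promoter bases inside that region, at chrX:101273841-101274090 on the plus strand of GRCm38.p6 from RefSeq, are shown to set a listed promoter beside the unlisted ones of Foxa1 and Ncoa1, with its single GC box, on the opposite strand, in capitals.
Med12: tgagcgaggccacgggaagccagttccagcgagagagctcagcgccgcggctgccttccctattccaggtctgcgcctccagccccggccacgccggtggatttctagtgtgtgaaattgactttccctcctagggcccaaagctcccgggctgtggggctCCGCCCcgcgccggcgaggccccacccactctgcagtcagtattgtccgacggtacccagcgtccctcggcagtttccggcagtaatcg

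The Med12 window was 66.3% G and C, close to that of Foxa1 (62.3%) and below that of Ncoa1 (84.7%). In all, 727 of the 32851 promoter windows overlapped a listed region.

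Corepressors had a region in 3 of 12 cases, and each of these genes had 1 region inside it and the others outside. They were Nrip1, which encodes the receptor-interacting protein RIP140 and had 4 regions in all, Tbl1x, a subunit of the NCoR complex, with 3, and Nr2f2, the orphan receptor COUP-TFII, with 2. Ncor1, a corepressor that counters the p160 proteins on nuclear receptors, had 0, with the nearest region 590.6 kb away. It too was chosen after its value was seen.

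Factors that bind DNA alongside the androgen receptor had a region in 8 of 14 cases. Grhl2, an epithelial transcription factor, and Etv1, an ETS factor, had 2 each, 1 of them inside the gene. Foxp1, another forkhead gene, had 3, of which 2 were inside its 597 kb. The relatives closest to Foxa1 were looked up after the values were seen: Foxa2 had a 451-base region 67 kb away, and Foxa3 had 0, with the nearest at 128.7 kb.

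Other coactivators had a region in 10 of 19 cases. Fhl2, a LIM-domain coactivator, had 5 regions, 2 of them inside the gene. Ncoa4, described as an androgen receptor coactivator and unrelated to the p160 family, had 1 inside the gene, as did Zmiz1. Kdm4c, a histone demethylase, had a 451-base region that overlapped part of 1 of its promoter windows, centred 9.47 kb inside the gene span. Chaperones and turnover factors had a region in 4 of 9 cases, all outside the gene, from 6.95 kb at Hsp90aa1 through 10.2 kb at Spop and 25.6 kb at Mdm2 to 27.5 kb at Rnf6. All regions in those windows were 143 bases wide, beside 49.4% of the whole list. They were few, with 3 at Rnf6 and 2 at Spop, and neighbouring regions are not independent.

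**Figure D4:**
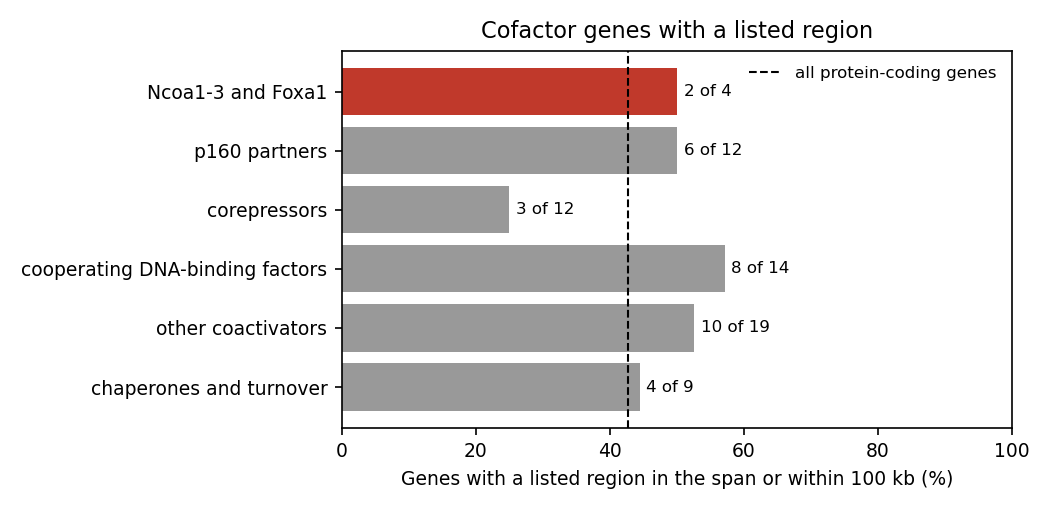
Percentage of genes with a listed region in the span or within 100 kb (x axis) for the 4 genes and 5 role lists, with counts beside the bars and the 42.7% of all protein-coding genes as a dashed line. The bars run between 25% for corepressors (3 of 12) and 57.1% for cooperating DNA-binding factors (8 of 14), on both sides of the line.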

How the data were processed

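ATAC-seq regions of 3 inflamed and 3 naive samples were used as the authors deposited them, as 1 merged list of 3 columns (chromosome, start, end). Its values are coordinates without counts. The authors used edgeR, HOMER 4.8, SAMtools and BWA 0.7.17-r1188 with build mm10, per the submitters' processing notes. The list's name joins abbreviations that may follow the order of steps and puts a number beside "edge" that may be a threshold. No source used here explains them or says how libraries were pooled, and such filters fix what can be listed. Starts, counted from 0 in the list, are printed from 1.

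Gene spans came from RefSeq on GRCm38.p6 (the same primary chromosomes as mm10). All 4 genes and all 66 list genes matched by symbol, and 2 of the 4 had a promoter sequence. A region was placed by its centre, and its nearest gene was the shortest enclosing gene or else the closest span. Python 3.11.15 and pandas 2.3.3 were used, and the code was tested on simulated positions. Members and lists were chosen with earlier results of these data known. Named are the 4 genes, the nearest genes of their regions, and up to 4 genes per list closest to a region, of which 1 is not reported here. No test was run, since the list has no value per library. The planned comparison of protein sequences was not run.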

Additional observations from a re-analysis of the deposited data

How the results depend on the processing

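No paired analysis was possible because no library has a value of its own, so neither replicate numbers nor leaving out a sample could be used. The 4 regions and the 2 genes with a region were unchanged when any overlap with the window counted and when regions within 1 kb were merged. Within 10 kb of the span 1 region at 1 gene was left. There 15 of the 66 list genes had one, in place of 31, beside 3322 of 21887 protein-coding genes (15.2%). Within 50 kb it was again 1 region at 1 gene, with 24 of the 66 list genes, beside 6509 of 21887 (29.7%). Within 500 kb there were 16 regions at 4 genes, and 57 of the 66 list genes, beside 17936 of 21887 (81.9%). The share of list genes was above that of all genes in each of these windows. The list genes also had longer spans, and no share for genes of like span was counted. With the 143-base regions and the single 235-base region alone there was 1 region at 1 gene, and 24 list genes had one. With 451-base regions alone there were 3 regions at 2 genes, and 16 list genes had one. The share over all genes was not counted for either width alone. Counting a region for its nearest protein-coding gene alone left 2 regions at 1 gene, Ncoa2, and with genes of any type 1 region. These shifts follow from the settings, which widen or narrow what is counted. Of 24 alternative values for the main counts, 14 moved by more than 1.5 times and 10 did not. For Ncoa1 and Ncoa3 the count was 1 and 3 in the 500 kb window and 0 in the other alternatives above. At distances between 100 and 500 kb Ncoa3 reached 1 at 200 kb and Ncoa1 reached 1 at 400 kb. The background share of 42.7% was 44.5% without predicted genes named Gm or LOC, an alternative chosen after the data were seen, as was counting any overlap with the span.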

Other observations

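Further out, the surroundings of Foxa1 were the fullest of the 4 genes, with 14 regions within 1000 kb, against 9 around Ncoa1, 7 around Ncoa2 and 5 around Ncoa3. The mean over all protein-coding genes was not counted at this distance, so these counts have no background and show nothing particular to Foxa1. Of the 14 around Foxa1, 11 were 451 bases wide and 3 were 143 bases wide. The 3 narrow ones all lay inside Slc25a21, which encodes a mitochondrial carrier and spans 484.8 kb. On the downstream side, 845 kb from Foxa1, a 451-base region (chr12:56695353-56695803) overlapped a promoter window of Pax9, a paired-box transcription factor gene. On the upstream side of Foxa1 the region in Ttc6 was followed by 699 kb without a listed region.

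Around Ncoa1 the 9 regions within 1000 kb comprised 6 of 143 bases and 3 of 451 bases. All 3 of the wider ones were on the upstream side and had Klhl29 as their nearest protein-coding gene, and 1 of them (chr12:5375344-5375794) overlapped a promoter window of that gene. The genes were compared over different lengths, since the range was set from the ends of each span. Neighbouring regions are not independent, and no test was run.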
